A study of Homo sapiens with 12 samples.

Results

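The 26S proteasome is the protease that degrades ubiquitin-tagged proteins, and its subunits and assembly factors are described here in a ribosome profiling experiment. Members were chosen by gene symbol: every row whose symbol began with PSMA, PSMB, PSMC, PSMD, PSME, PSMF or PSMG, leaving out the 3 interferon-inducible catalytic subunits PSMB8, PSMB9 and PSMB10. This gave 47 of the 15798 genes in the table. HCT116 cells, a human colorectal cancer line, had received 100 nM of the MEK1/2 inhibitor trametinib, or DMSO as solvent control, for 24 h. All dishes received cycloheximide, which halts elongating ribosomes, shortly before lysis. Each treatment had 3 libraries of input RNA, which is randomly fragmented cytoplasmic RNA and measures mRNA abundance, and 3 libraries of ribosome footprints, the mRNA stretches protected by a ribosome from RNase I in the monosome fraction. These 12 libraries form 4 groups of 3, and all come from 1 cell line. The labels do not say whether equally treated dishes came from separate cultures or days, so p-values measure the spread between these dishes.

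The proteasome consists of a barrel-shaped core, the 20S particle, and caps that feed it. The core is a stack of rings of alpha subunits (PSMA genes), which form the gate, and beta subunits (PSMB genes), of which PSMB5, PSMB6 and PSMB7 carry the protease activities. The 19S cap has a base, with a ring of ATPases (PSMC genes) that unfold the substrate, and a lid (several PSMD genes) that removes ubiquitin. PSME genes encode other caps that work without ATP, PSMF1 encodes an inhibitor, and PSMG genes with PSMD5, PSMD9 and PSMD10 encode chaperones that assist assembly and do not remain in the finished particle. When proteasome activity falls, the transcription factor NFE2L1 is known to raise most subunit genes together through antioxidant response elements in their promoters. Because subunits are needed in fixed proportions, the family also offers a view of how evenly a complex is synthesized.

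Values are normalized counts, that is, reads inside the gene's open reading frame divided by the size factor of the library. A change is the log2 ratio of trametinib to DMSO (n = 3 libraries each), followed by its standard error (SE), from edgeR's quasi-likelihood test with Benjamini-Hochberg adjustment over 10663 tested genes. A gene was called at an adjusted p under 0.05. Total counts were 2276693 to 2845568 in input and 10127477 to 19181588 in footprints, and the median SE of a member's change was 0.162 in input, 0.133 in footprints and 0.207 for ribosome density. ERK output genes fell in 8 of 8 cases in both assays. Markers of cell types moved with treatment too. The 7 colon epithelial markers summed to 29209 to 44401 normalized counts in DMSO input and 48850 to 61056 in trametinib input, and to 49871 to 68386 and 76144 to 88704 in footprints, with 3 of 5 tested markers higher in input and 4 in footprints. KRT18 had estimates below 0 (-0.22 in input, -0.11 in footprints) and was not called. CDH17 and VIL1 were at 0 in DMSO input and VIL1 in trametinib input. The 5 fibroblast markers summed to 45.4 to 81.9 in DMSO input and 123 to 157 in trametinib input (38.3 to 52.8 and 121 to 191 in footprints). Of the 2 that were tested, COL3A1 was called higher and COL1A1 was not called (-0.20 in input, 0.22 in footprints). PDGFRA was at 0 in input of both treatments. The 3 endothelial markers summed to 4.68 to 21.6 and 52.9 to 59.2 in input (1.95 to 6.26 and 10.1 to 14.0 in footprints), where VWF was called higher and CDH5 was at 0 in input. The 5 leukocyte markers together did not exceed 15.4. The part of these markers in the members' changes was not tested. In bulk RNA, fewer cells that express a gene and less RNA per cell cannot be told apart.

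One pair of libraries stood apart. DMSO replicate 1 held a smaller share of its reads in members than the other DMSO libraries: 0.568% against 0.719% and 0.706% of input, and 0.975% against 1.19% and 1.26% of footprints. Its share lay close to that of the trametinib libraries, 0.546 to 0.571% of input and 1.00 to 1.06% of footprints. Relative to the DMSO mean, the median member stood at -0.14 on the log2 scale in DMSO input 1 and at -0.19 in DMSO footprints 1, whereas the trametinib libraries lay between -0.46 and -0.36. The 8 ERK output genes were highest in the same libraries, with a sum of 12399 normalized counts in DMSO input 1 against 7311 and 7968, and 16891 in DMSO footprints 1 against 10787 and 9253. Whether these differences affect the members' changes was not tested otherwise than by leaving the libraries out.

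**Figure D1:**
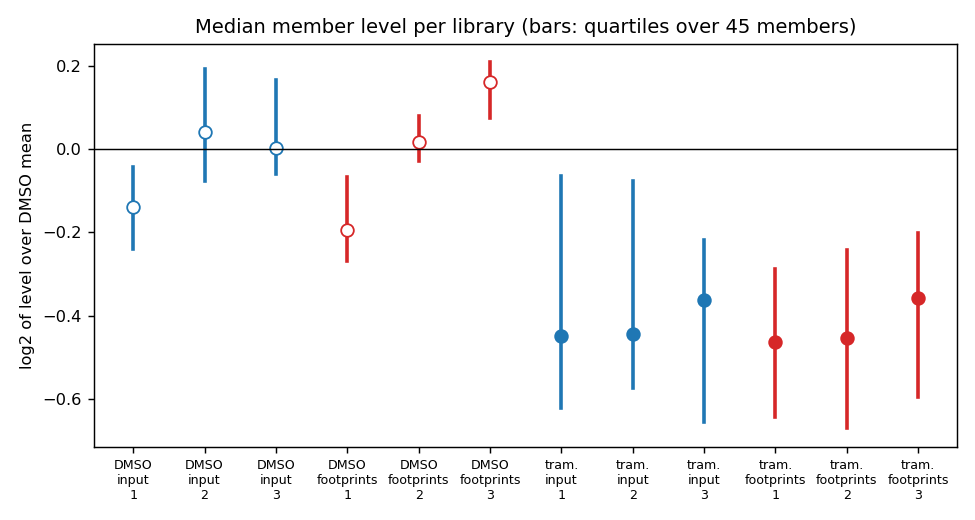
Median log2 level of the 45 tested members in each library relative to the mean of the 3 DMSO libraries of the same assay (bars, quartiles over members; open points, DMSO; filled points, trametinib; blue, input; red, footprints). The 6 trametinib medians lie between -0.46 and -0.36, and DMSO replicate 1 lies below the other DMSO libraries in both assays.

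The first comparison asked how trametinib changed the mRNA level and the ribosome occupancy of the proteasome. Of 45 members with enough reads, 21 fell in input and 2 rose, against 16.9% of all tested genes lower and 15.4% higher. In footprints 26 fell and 2 rose, where 25.6% of all genes were lower and 23.8% higher. The falls were modest: the median change of members was -0.44 in input and -0.43 in footprints, beside a median of -0.01 over all tested genes in each assay. In input 39 of 45 estimates were below 0 (50.7% of all genes), and in footprints 42 of 45 (50.9%). All 3 trametinib libraries lay below all 3 DMSO libraries for 26 members in input (23.3% of all genes) and for 31 in footprints (30.3%), and above them for 2 in input (23.2%) and 2 in footprints (29.3%). The risers were PSME1 and PSME2 in both assays. There were 20 members that fell in both assays, 1 in input only (PSMC1), 6 in footprints only (PSMA1, PSMA2, PSMA7, PSMB1, PSMB5 and PSMB7) and 16 that were called in neither. PSMC3IP, which is no proteasome subunit, is counted among those that fell in both. The classes follow the threshold, and no member was called for a difference between the assays.

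Without DMSO replicate 1 the falls were more numerous, 24 members in input (18.5% of all genes lower) and 38 in footprints (31.1% of all genes lower), with medians of -0.51 and -0.54. The 12 gained in footprints were PSMA3, PSMA4, PSMA5, PSMB4, PSMC1, PSMC5, PSMD2, PSMD3, PSMD9, PSME4, PSMG2 and PSMG4. In input PSMA2, PSMD2 and PSMD3 were gained. Leaving out any other input library left fewer members lower: 13 without DMSO replicate 2 (14.3% of all genes lower), 17 without DMSO replicate 3 (18.0%), 11 without trametinib replicate 1 (12.6%), 11 without trametinib replicate 2 (11.6%) and 12 without trametinib replicate 3 (12.8%). In footprints the count was 22 without DMSO replicate 2 (22.6% of all genes lower), 21 without DMSO replicate 3 (23.7%), 17 without trametinib replicate 1 (18.7%), 18 without trametinib replicate 2 (18.9%) and 23 without trametinib replicate 3 (20.9%). It was also 17 when libraries were scaled by their totals, which called 18.1% of all genes lower and moved the median of all genes to 0.16 and that of members to -0.25. With that scaling the footprint calls of PSMA7, PSMB1, PSMB5, PSMB7, PSMC2, PSMC6, PSMD10, PSME3 and PSMG3 were lost.

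**Figure D2:**
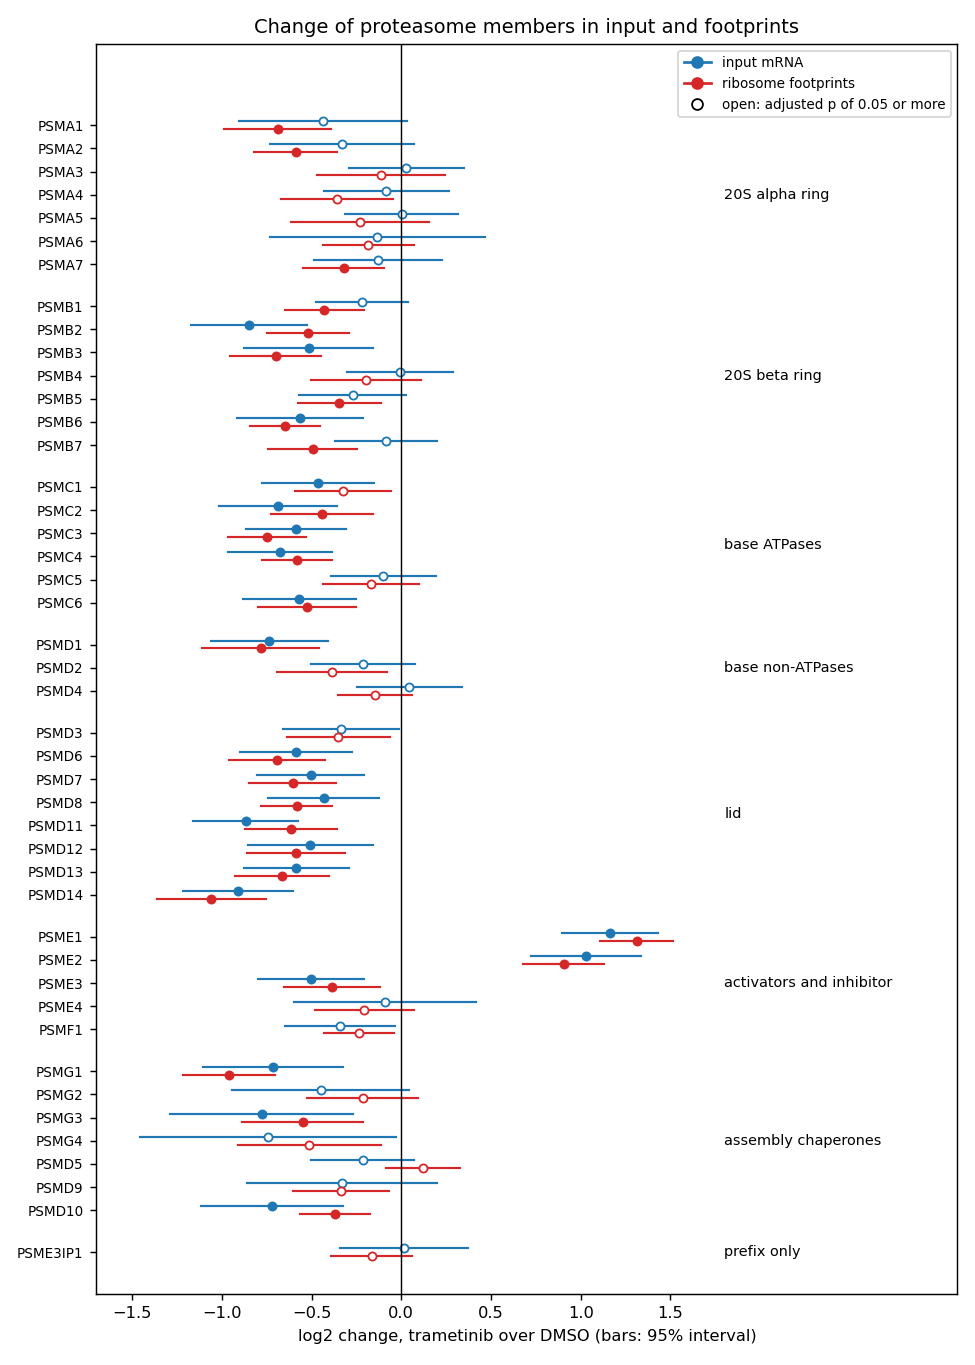
Log2 change of each tested member except PSMC3IP under trametinib, by role (points, estimate; bars, nominal 95% interval of 1.96 SE on each side, narrower than the test implies; blue, input; red, footprints; filled, adjusted p under 0.05). Lid subunits and most ATPases lie left of 0 in both assays, the alpha subunits are open in input, with PSMA1 at -0.44 and the others nearer to 0, and PSME1 and PSME2 stand alone on the right.

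In the lid nearly every subunit fell. Of 8 subunits, 7 fell in input and 7 in footprints, with medians of -0.55 and -0.61. The subunit PSMD14, the metalloprotease that cuts ubiquitin chains off the substrate (chr2:161308425-161411717, plus strand, GRCh38), had the largest fall among the subunits with a PSM symbol in both assays. PSMD14 was read at 999, 1236 and 1009 normalized counts in DMSO input and at 609, 597 and 519 in trametinib input. Its footprints numbered 2001, 2469 and 2987 in DMSO and 1126, 1146 and 1307 in trametinib. Neither assay showed any overlap between the treatments. The log2 change of PSMD14 was -0.91 ± 0.16 in input (adjusted p = 0.000546) and -1.06 ± 0.15 in footprints (adjusted p = 0.000495), which left 53.2% and 48.0% of the DMSO level.

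PSMD11, a scaffold subunit of the lid, was likewise separated. Input values were 893, 1009 and 1079 in DMSO and 517, 556 and 560.5 in trametinib, and footprints were 1596, 1929 and 2169 and 1237, 1187 and 1296. PSMD11 fell by 0.87 ± 0.15 (log2 ± SE) in input (adjusted p = 0.000575) and by 0.61 ± 0.13 in footprints (adjusted p = 0.00393). The scaffold subunits PSMD6, PSMD12 and PSMD13, the inactive JAMM-fold partner of PSMD14 named PSMD7, and PSMD8 fell too, with input changes from -0.59 (PSMD6) and -0.59 (PSMD13) to -0.43 (PSMD8) and footprint changes from -0.69 (PSMD6) to -0.58 (PSMD8). In input PSMD8 was near the threshold (adjusted p = 0.0494), as was PSMD12 (adjusted p = 0.0414). The exception was PSMD3, at -0.34 ± 0.17 in input (adjusted p = 0.137) and -0.35 ± 0.15 in footprints (adjusted p = 0.0729), which was called lower in both assays once DMSO replicate 1 was left out.

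The 150 bases before the RefSeq start of PSMD14, the subunit with the largest fall, and of PSMB3, a beta subunit that fell in both assays and is shown as an example with CCAAT and an antioxidant response element core, are given for the letters they carry (GRCh38.p14; PSMD14 chr2:161308275-161308424, PSMB3 chr17:38752591-38752740, both plus strand, 5′ to 3′). Capitals mark CCAAT on either strand, which in PSMD14 is a pair of overlapping matches, one per strand, and, in PSMB3 only, the antioxidant response element core TGACNNNGC. Part of the PSMD14 stretch is also an exon of the divergent noncoding gene PSMD14-DT.
PSMD14: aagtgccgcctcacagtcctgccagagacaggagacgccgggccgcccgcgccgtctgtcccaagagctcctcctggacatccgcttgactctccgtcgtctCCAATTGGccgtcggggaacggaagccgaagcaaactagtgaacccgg
PSMB3: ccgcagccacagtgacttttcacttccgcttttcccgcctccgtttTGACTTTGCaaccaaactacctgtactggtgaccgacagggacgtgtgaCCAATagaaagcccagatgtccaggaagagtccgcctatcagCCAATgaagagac

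Most ATPases of the base fell. In input 5 of 6 were lower (median -0.58) and in footprints 4 of 6 (median -0.48). PSMC3 was read at 1076, 1106 and 1192 in DMSO input and at 710.0, 805 and 730.1 in trametinib input, with footprints of 1523, 1593 and 1757 and 966, 906 and 1028. This subunit, known to contact ubiquitin chains, fell by 0.59 ± 0.14 in input (adjusted p = 0.00637) and by 0.75 ± 0.11 in footprints (adjusted p = 0.000522). PSMC2, PSMC4 and PSMC6 also fell in both assays, with input changes of -0.69 for PSMC2, -0.68 for PSMC4 and -0.57 for PSMC6.

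PSMC1 fell in input (-0.47 ± 0.16, adjusted p = 0.0373) and missed the threshold in footprints (-0.33 ± 0.14, adjusted p = 0.0735). PSMC5 was called in neither assay: its input values were 1426, 1718 and 1306 in DMSO and 1449, 1423 and 1275 in trametinib, which overlap. The log2 change of PSMC5 was -0.10 ± 0.15 in input (adjusted p = 0.637) and -0.17 ± 0.14 in footprints (adjusted p = 0.33). Both PSMC1 and PSMC5 were called lower in footprints once DMSO replicate 1 was left out. The nominal 95% interval of PSMC5 in input (-0.39 to 0.19) overlaps that of each other ATPase. It does so most for PSMC1 (-0.78 to -0.15) and least for PSMC4 (-0.97 to -0.38). The difference between the subunits was not tested.

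Among the base subunits without ATPase activity, 1 of 3 fell in each assay, where 16.9% of all tested genes fell in input and 25.6% in footprints. PSMD1, a large docking platform for ubiquitin receptors, was read at 1158, 1757 and 1439.9 in DMSO input and 939, 823 and 854 in trametinib input. Its footprints numbered 1743, 2429 and 2756 in DMSO and 1317, 1249.9 and 1458 in trametinib. The groups were separate, and PSMD1 fell by 0.74 ± 0.17 in input (adjusted p = 0.00408) and by 0.78 ± 0.17 in footprints (adjusted p = 0.00393).

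The ubiquitin receptor PSMD4 showed no such shift. PSMD4 was read at 958, 1059 and 899 in DMSO input and 1107, 1001 and 897 in trametinib input, a change of 0.04 ± 0.15 (adjusted p = 0.853). PSMD4 footprints were 2673, 2703 and 2897 and 2440.2, 2406 and 2623, a change of -0.15 ± 0.10 (adjusted p = 0.268). The groups overlapped in input and lay apart, by a small margin, in footprints. The other platform subunit, PSMD2, had changes of -0.21 ± 0.15 in input (adjusted p = 0.29) and -0.39 ± 0.16 in footprints (adjusted p = 0.067). It was called lower in footprints in the model with a term for the replicate number and, in both assays, without DMSO replicate 1.

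In the beta ring 3 of 7 subunits fell in input (median -0.27) and 6 of 7 in footprints (median -0.50). Of the 3 proteolytic subunits 1 was called in input, and the differences between them were not tested. PSMB6, with caspase-like activity, was read at 606, 668 and 761 in DMSO input and 477, 358 and 539.9 in trametinib input, and its footprints were 1431, 1548 and 1518 and 958, 933 and 980.4. PSMB6 fell in input (-0.57 ± 0.18, adjusted p = 0.0273) and in footprints (-0.65 ± 0.10, adjusted p = 0.000678), with no overlap between treatments.

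PSMB5, the chymotrypsin-like subunit and the main target of bortezomib, was read at 1016, 1015 and 1271 in DMSO input and 883, 869.8 and 985 in trametinib input. PSMB5 footprints numbered 1114, 1308 and 1394 in DMSO and 945, 1029 and 1027 in trametinib. The groups were separate in both assays, yet the input change of -0.27 ± 0.15 missed the threshold (adjusted p = 0.192) while the footprint change of -0.35 ± 0.12 passed it (adjusted p = 0.035).

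PSMB7, the trypsin-like subunit, had input values of 999, 1145 and 1253 in DMSO and 1083, 1073 and 1049 in trametinib. PSMB7 footprints were 1964, 2245 and 2507 in DMSO and 1543, 1474 and 1748 in trametinib. The treatments overlapped in input (-0.08 ± 0.14, adjusted p = 0.696) and were separate in footprints (-0.50 ± 0.13, adjusted p = 0.0105).

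The remaining beta subunits are structural. PSMB2 followed PSMD14 and PSMD11 in the size of its fall in input, from 720.5, 713 and 857 in DMSO to 387, 394 and 491 in trametinib (-0.85 ± 0.16, adjusted p = 0.00142). Its footprints went from 1973, 2136 and 2462 to 1494, 1481 and 1606 (-0.52 ± 0.12, adjusted p = 0.00545), so that the ranges were apart in both assays. PSMB3 fell by 0.52 in input (adjusted p = 0.0444) and by 0.70 in footprints (adjusted p = 0.00194). PSMB1 fell in footprints only (-0.43 ± 0.11, adjusted p = 0.011), against -0.22 ± 0.13 in input (adjusted p = 0.218). PSMB4 was called in neither assay, at -0.01 in input and -0.19 in footprints.

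The alpha ring showed few called changes in the main analysis. Of its 7 subunits 0 were called in input by edgeR, 0 by DESeq2 and 0 by limma, and 0 had an unadjusted p under 0.05 by any of these tools. Input estimates ran from -0.44 (PSMA1) to 0.03 (PSMA3), with a median of -0.13. In footprints 3 of 7 fell, with a median of -0.32: PSMA1 (-0.69 ± 0.15, adjusted p = 0.00486), PSMA2 (-0.59 ± 0.12, adjusted p = 0.00284) and PSMA7 (-0.32 ± 0.12, adjusted p = 0.0434). PSMA7 did not hold with the replicate number in the model (adjusted p = 0.0515), whereas PSMA4, at -0.36 ± 0.16 (adjusted p = 0.0893), was called lower there.

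PSMA3, PSMA4, PSMA5 and PSMA6 were called in neither assay. Once DMSO replicate 1 was left out, PSMA3, PSMA4 and PSMA5 were called lower in footprints, and PSMA2 in input. For PSMA3 input values were 796, 1195 and 988 in DMSO and 1032, 1042 and 964 in trametinib, and footprints were 1902, 2796 and 3162 and 2183, 2407 and 2677. DMSO replicate 1 of PSMA3 was the lowest of all 6 libraries in each assay, and its trametinib values lay within the DMSO range. PSMA1 and PSMA2 were measured on part of their reading frame: 44.3% of the 30-base windows of PSMA1 and 34.8% of those of PSMA2 occur in no other symbol's reading frame, because annotated read-through transcripts share the rest. For PSMA6, 100% of windows were its own in the Gencode release used here, which is later than that used for counting and may list other read-through symbols, yet counts were low in both assays, at 71.2, 58.3 and 63.2 in DMSO input and 137, 131 and 119 in DMSO footprints.

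**Figure D3:**
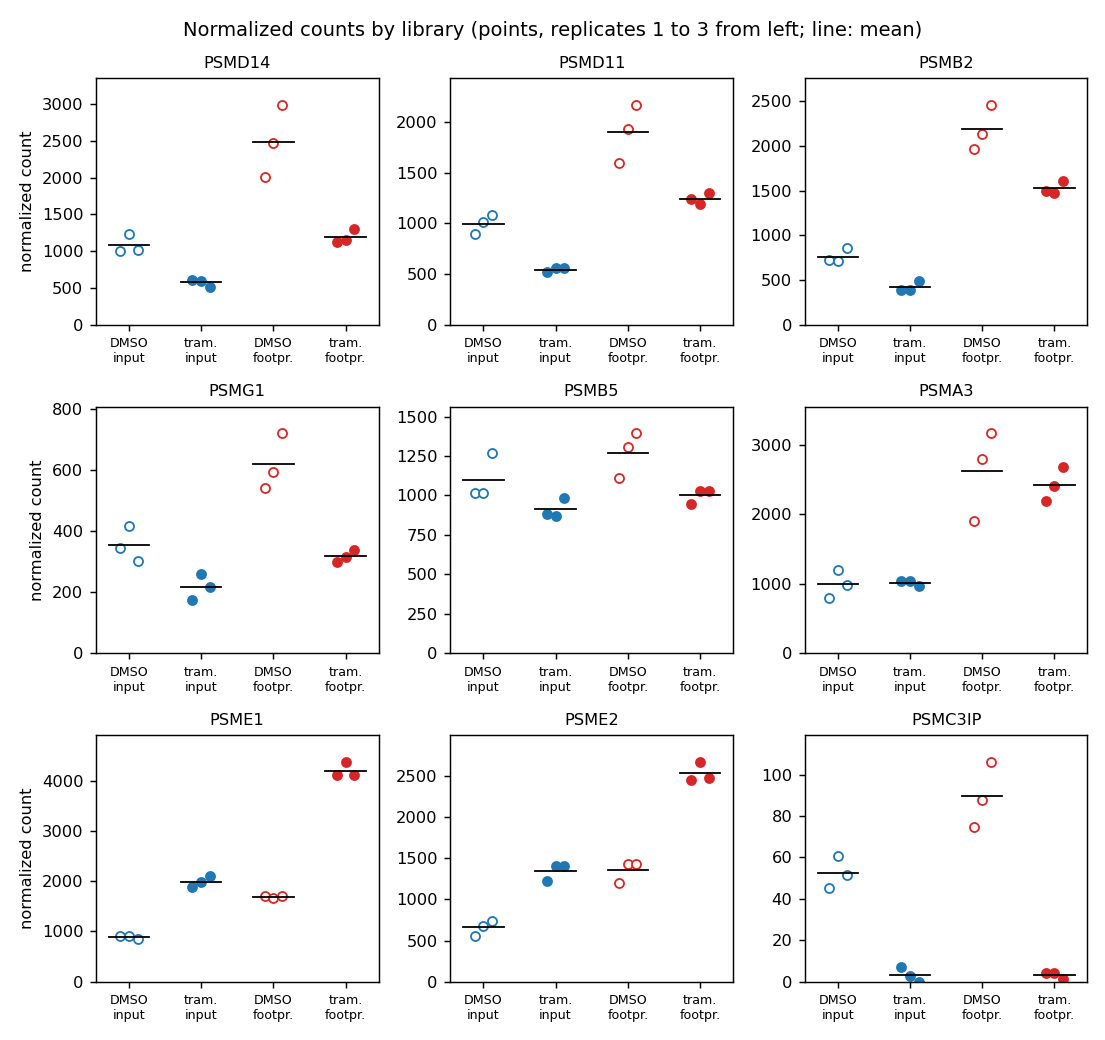
Normalized counts of 9 members in each of the 12 libraries on linear axes that start at 0 (points, replicates 1 to 3 from left to right; lines, group mean; open, DMSO; filled, trametinib; blue, input; red, footprints). PSMD14, PSMD11, PSMB2 and PSMG1 are lower in all trametinib libraries of each assay, PSME1 and PSME2 are higher in all of them, and PSMA3 overlaps.

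The activators split by type. PSME1 and PSME2, which form the interferon-inducible PA28 alpha-beta cap linked to the production of antigenic peptides, rose in both assays. PSME1 (chr14:24136163-24138967, plus strand) went from 910.3, 901 and 852 normalized counts in DMSO input to 1894, 1979 and 2095 in trametinib input. Its footprints went from 1697, 1671 and 1706 to 4106, 4377 and 4122. With narrow ranges that lay far apart, PSME1 rose by 1.16 ± 0.14 in input (adjusted p = 2.06e-05) and by 1.31 ± 0.10 in footprints (adjusted p = 1.12e-05), 2.24-fold and 2.48-fold.

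PSME2 (chr14:24143362-24147570, minus strand), a gene on the opposite strand whose 3′ end lies 4394 bases beyond the 3′ end of PSME1, was read at 561, 678 and 739.9 in DMSO input and 1225, 1408 and 1409 in trametinib input. PSME2 footprints numbered 1194, 1433 and 1426 in DMSO and 2447, 2669 and 2472 in trametinib. Again all trametinib libraries lay above all DMSO libraries, with a rise of 1.03 ± 0.16 in input (adjusted p = 0.000198) and of 0.90 ± 0.12 in footprints (adjusted p = 0.000237). These calls held under each alternative setting tried. PSMB9 and PSMB10, catalytic subunits of the immunoproteasome and not counted among the members, rose as well, by 2.99 ± 0.22 and 1.75 ± 0.22 in input and by 3.13 ± 0.15 and 2.68 ± 0.15 in footprints. PSMB8 did not pass the filter on low counts.

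Promoter letters of the only members that rose are shown from RefSeq (GRCh38.p14), 5′ to 3′ on the strand of each gene: PSME1 chr14:24136044-24136162 on the plus strand and PSME2 chr14:24146620-24146649 on the minus strand. Capitals mark TGACNNNGC in PSME1 and the letters of an interferon-stimulated response element (ISRE), here GAAA repeated after a gap of 2 bases, in PSME2. The ISRE letters were not found in PSME1. They also occurred in PSMA4, PSMB4 and PSMG4, which were called in neither assay. The stretch of PSME2 is short because exons of other transcripts adjoin it, and it lies in the first exon of some longer PSME2 transcripts.
PSME1: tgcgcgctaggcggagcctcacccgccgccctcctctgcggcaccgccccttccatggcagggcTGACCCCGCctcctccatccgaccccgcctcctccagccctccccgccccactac
PSME2: acctggggagtGAAAGCGAAAgcccgggcg

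PSME3, which forms the nuclear PA28 gamma cap, moved the other way. PSME3 input values were 671, 743 and 731 in DMSO and 505, 540.4 and 468 in trametinib, and its footprints were 1021, 1160.1 and 1411 and 909.6, 860.0 and 983. The groups did not overlap, and PSME3 fell by 0.50 ± 0.15 in input (adjusted p = 0.0202) and by 0.38 ± 0.14 in footprints (adjusted p = 0.0411).

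PSME4, which encodes the PA200 cap, was the most variable of the caps. Input values were 550.0, 1193 and 712 in DMSO and 939, 646 and 717 in trametinib, with overlap (-0.09 ± 0.26, adjusted p = 0.819). PSME4 footprints were 687, 943 and 930.1 and 735, 689 and 793 (-0.21 ± 0.14, adjusted p = 0.246). PSMF1, the inhibitor also known as PI31, was read at 621, 534 and 553 in DMSO input, 462, 414 and 470.5 in trametinib input, 844, 838 and 827 in DMSO footprints and 676, 718 and 737 in trametinib footprints. Although the PSMF1 ranges were apart in both assays, its changes of -0.34 ± 0.16 (adjusted p = 0.109) and -0.24 ± 0.10 (adjusted p = 0.0743) were not called.

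Of the 7 assembly chaperones 3 fell in each assay, the same 3 genes: PSMG1, PSMG3 and PSMD10. PSMG1 forms with PSMG2 the heterodimer that starts alpha ring assembly. PSMG1 was read at 345, 417 and 302 in DMSO input and 173, 259.9 and 216 in trametinib input. Its footprints were 541, 596 and 722 and 301, 317 and 339. Both pairs of ranges were apart, with falls of 0.72 ± 0.20 (adjusted p = 0.0137) and 0.96 ± 0.13 (adjusted p = 0.000348), the latter next in size to that of PSMD14 among footprint changes of the subunits and chaperones.

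PSMG2, its partner, was not called: input values were 153, 119 and 234 in DMSO and 125, 113 and 131 in trametinib, and footprints were 242, 337 and 369 and 262, 287 and 267. Both ranges overlapped, at -0.45 ± 0.25 in input (adjusted p = 0.192) and -0.22 ± 0.16 in footprints (adjusted p = 0.282).

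PSMG3 and PSMG4 form the other alpha ring chaperone pair and were weakly expressed. PSMG3 had 97.1, 77.8 and 124 normalized counts in DMSO input and 57.8, 61.8 and 54 in trametinib input, with footprints of 68.1, 63.2 and 90.3 and 48.8, 53.8 and 49.5. PSMG3 fell in input (-0.78 ± 0.26, adjusted p = 0.034) and in footprints (-0.55 ± 0.17, adjusted p = 0.0251). PSMG4 had 56.1, 45.4 and 115 in DMSO input and 52.9, 38.6 and 36 in trametinib input, with footprints of 61.1, 71.7 and 68.2 and 49.5, 57.1 and 33.3. A high DMSO input replicate 3 and wide spread accompanied its input change of -0.74 ± 0.36 (adjusted p = 0.136). The footprint change of PSMG4, -0.51 ± 0.20 (adjusted p = 0.0617), was called lower in the model with the replicate number.

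PSMD5, PSMD9 and PSMD10 assist assembly of the ATPase base. PSMD10, also known as gankyrin, was read at 267, 190.1 and 208 in DMSO input and 142, 126 and 136 in trametinib input. PSMD10 footprints were 778, 751 and 751 in DMSO and 587, 562 and 614 in trametinib. The fall was 0.72 ± 0.20 in input (adjusted p = 0.0144) and 0.37 ± 0.10 in footprints (adjusted p = 0.013), with separate ranges.

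PSMD5 was the only assembly factor with a footprint estimate above 0. PSMD5 input was 645, 685 and 663 in DMSO and 568, 594 and 553 in trametinib (-0.22 ± 0.15, adjusted p = 0.281), and its footprints were 799, 791 and 861 and 936, 825 and 901 (0.12 ± 0.10, adjusted p = 0.369). It was called higher in footprints when libraries were scaled by their totals. PSMD9 had 129, 77.8 and 101 in DMSO input and 67.4, 72.1 and 105 in trametinib input, with footprints of 84.4, 92.5 and 101 and 71.9, 73.1 and 75.2. PSMD9 was called in neither assay (-0.33 ± 0.27 and -0.33 ± 0.14), and 66.7% of its windows belong to its symbol alone.

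A few members share the letters of the family and not its structure. PSMC3IP, a partner of the recombinases that pair homologous chromosomes and no proteasome subunit, had the largest fall of all members. PSMC3IP was read at 45.3, 60.5 and 51.5 normalized counts in DMSO input and at 7.22, 2.57 and 0 in trametinib input, which are 71 and 4 reads in all. Its footprints were 74.8, 87.9 and 106 in DMSO and 4.3, 4.11 and 1.43 in trametinib, 626 and 27 reads. The trametinib level was thus 6.39% of DMSO in input (95% interval 1.70 to 17.1%) and 3.85% in footprints (2.52 to 5.66%), with intervals that cover counting error only. The fitted changes were -3.86 ± 0.55 (adjusted p = 0.000122) and -4.69 ± 0.30 (adjusted p = 2.93e-06). With 21, 28 and 22 raw reads in DMSO input and 3, 1 and 0 in trametinib input, PSMC3IP passed the filter through DMSO alone. Its selection thus favoured a fall, which the p-values do not allow for. PSME3IP1, a nuclear protein that binds PSME3, was called in neither assay, at 0.01 ± 0.18 and -0.17 ± 0.12. The testis subunit PSMA8 and the thymus subunit PSMB11 had at most 1 read in any library and were not tested.

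Ribosome density, the footprint change beyond the input change, was tested as the interaction of assay and treatment over all 12 libraries. No member was called, in either direction, by edgeR, DESeq2 or limma, and 2 had an unadjusted p under 0.05 in edgeR (1 lower, 1 higher). Over all genes 0.0656% were called higher and 1.04% lower. The smallest adjusted p among members was 0.565, for PSMB7. Its log2 density per dish was 0.98, 0.97 and 1.00 in DMSO and 0.51, 0.46 and 0.74 in trametinib, without overlap, and the change was -0.41 ± 0.18. The higher one was PSMD5, with 0.31, 0.21 and 0.38 in DMSO and 0.72, 0.47 and 0.71 in trametinib (0.34 ± 0.16, adjusted p = 0.619).

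Estimates were below 0 for 31 of 45 members (49.9% of all genes). The precision bounds what could be seen. For 43 of 45 members the nominal 95% interval of the density change lay within 1 log2 unit of 0, the exceptions being PSMC3IP and PSMG4. These intervals are 1.96 SE on each side, which is somewhat narrow for so few libraries. They come from the model that leaves out the pairing of input and footprints by dish. For PSMD14 the interval was -0.57 to 0.27, for PSME1 -0.14 to 0.43, for PSMB2 -0.04 to 0.70 and for PSMD10 -0.04 to 0.74. All 7 alpha subunits and 6 of 7 beta subunits had density estimates below 0, with medians of -0.23 and -0.18, while the ATPases had a median of 0.07 and the assembly chaperones one of 0.23. These medians carry no call, and the difference between the groups was not tested. Their size depends on the scaling, since with library totals the median over all genes was 0.18 and that over members 0.10. Because libraries are scaled to one another, a change in translation shared by all mRNAs is not visible.

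**Figure D4:**
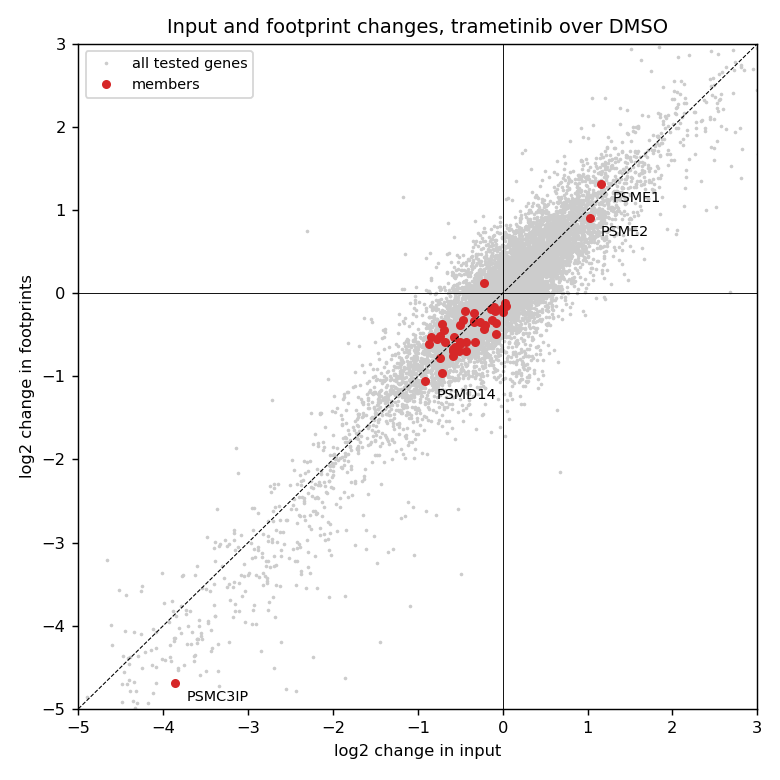
Log2 change in footprints against log2 change in input for the 45 tested members (red) over all tested genes (grey, of which 75 lie outside the plotted range); the dashed line marks equal change. Most members lie in the lower left quadrant near the line, PSME1 and PSME2 in the upper right, and PSMC3IP far to the lower left.

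Input and footprint changes of members ran together. Across 45 members Pearson's r was 0.96 and Spearman's rho 0.79, and without PSMC3IP, PSME1 and PSME2 they were 0.73 and 0.75 across 42. These are descriptions across genes from the same dishes. Members also had many footprints for their input at baseline, given as a description because genes differ in sequence and length bias. The median log2 ratio of footprints to input in DMSO was 0.81, against 0.05 over all tested genes (quartiles -0.64 and 0.66). Of 45 members, 41 lay above the median of all tested genes, and no other gene set was compared. PSMD12 was highest at 1.92 ± 0.28 (SD, n = 3 dishes). PSMG3 was lowest at -0.42 ± 0.11, next to PSMA1 at -0.41 ± 0.20, and these neighbours differ by less than their spread.

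Subunits of a ring enter the particle in equal numbers, so footprints per codon of the reading frame were set side by side as a description of how evenly they are synthesized (SD, n = 3). Codons were counted only over the share of the reading frame that no other symbol holds, which lowers the divisor of PSMA1 and PSMA2. In the DMSO lid values ran from 2.98 ± 0.56 normalized footprints per codon for PSMD3 to 8.02 ± 1.6 for PSMD14, and the coefficient of variation (CV) across its 8 subunits was 29.9%. With trametinib the lid ran from 2.34 ± 0.11 for PSMD3 to 4.52 ± 0.53 for PSMD12, and the CV was 21.9%. PSMD14 moved from the top of the lid in DMSO to 3.85 ± 0.32 footprints per codon, near PSMD13 at 3.93 ± 0.13 and below PSMD12. In DMSO PSMD12 stood at 6.78 ± 0.92, and in each treatment these neighbours of PSMD14 differ from it by less than the sum of the SDs. The single libraries gave lid CVs of 28.5 to 33.4% in DMSO and 19.3 to 25.9% in trametinib, which do not overlap.

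The ATPases diverged instead. Their CV was 26.4% in DMSO (libraries 23.0 to 29.5%) and 41.3% in trametinib (37.7 to 45.8%). PSMC5 was the highest ATPase in each treatment, at 6.21 ± 0.98 and 5.53 ± 0.35 footprints per codon, and PSMC4 the lowest, at 3.1 ± 0.071 and 2.07 ± 0.094. The core rings were less even in both treatments. The beta ring ran from 4.84 ± 0.55 (PSMB5) to 25.2 ± 1.6 (PSMB1) in DMSO, with a CV of 59.0% there and of 59.5% in trametinib. The alpha ring had CVs of 73.3% and 76.7%, which rest on its low members: PSMA6 at 0.524 ± 0.039 and PSMA1 at 0.657 ± 0.082 footprints per codon in DMSO, beside 11 ± 1.2 for PSMA7. The sequence that PSMA1 shares with a read-through symbol is already left out of its codons. Input per codon in DMSO was low for both, 0.879 ± 0.148 for PSMA1 and 0.261 ± 0.026 for PSMA6, beside 3.33 ± 0.48 for PSMA7. Why was not tested.

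**Figure D5:**
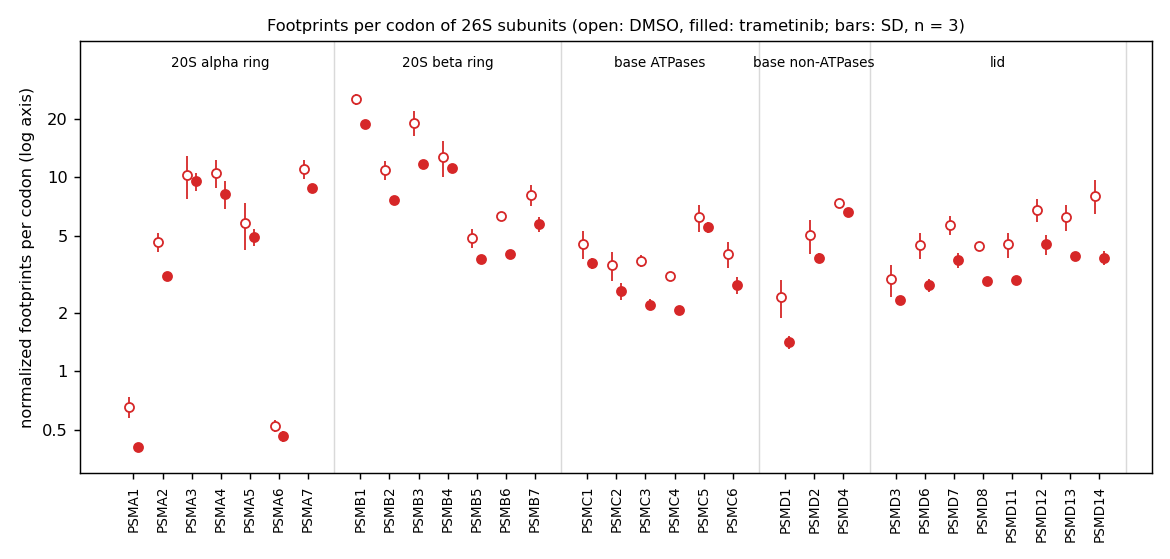
Normalized footprints per codon for the subunits of the 26S proteasome, on a log axis (points, mean; bars, SD, n = 3; open, DMSO; filled, trametinib). Codons are those of the part of the reading frame that no other symbol holds. Values of PSMA1 and PSMA6 lie far below their ring, PSMD14 goes from the highest mean of the lid to near that of PSMD13, within the spread of its neighbours, and PSMC5 stays highest of the ATPases.

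Promoter letters were counted for the 41 members found in the RefSeq table, over 250 bases before the start and on both strands, beside all 15843 promoters of coding genes. TGACNNNGC, whose first letters also begin the AP-1 site, occurred in 10 members (24.4%) and in 11.5% of all promoters. CCAAT occurred in 19 members (46.3%, 34.5% of all), the gamma-activated site letters TTCNNNGAA in 5 (12.2%, 6.12% of all) and the ISRE letters in 4 (9.76%, 2.72% of all). Those with the ISRE letters were PSMA4, PSMB4, PSME2 and PSMG4, of which only PSME2 was called. The members with TGACNNNGC were PSMB3, PSMD3, PSMD5, PSMD9, PSMD12, PSME1, PSME2, PSME4, PSMG1 and PSMG2, which include members that rose, fell and were not called. No member began with C and 4 pyrimidines at its annotated start (4.60% of all), the letters of mRNAs with a terminal oligopyrimidine tract. A match describes letters and is no evidence of binding.

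Other genes of the pathway were taken from lists by function. Of all tested genes 16.9% were called lower and 15.4% higher in input, and 25.6% lower and 23.8% higher in footprints. The lists are short, and their counts were not tested against these shares. Of 10 proteasome genes without a PSM symbol, 5 fell in input and 8 in footprints, with medians of -0.73 and -0.72. UCHL5, a deubiquitinase of the base, changed by -1.28 ± 0.23 in input and -0.88 ± 0.11 in footprints, and POMP, the maturation factor of the core, by -1.23 ± 0.19 and -0.63 ± 0.12. AKIRIN2, which brings proteasomes into the nucleus, changed by -1.13 ± 0.26 and -0.76 ± 0.18. All 6 of these changes passed the threshold.

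The NFE2L1 pathway, which controls proteasome genes, had 0 of 8 genes called in either assay by edgeR, DESeq2 or limma, and 1 (SYVN1, in input) had an unadjusted p under 0.05. NFE2L1 itself was at -0.23 ± 0.36 in input (adjusted p = 0.674) and -0.40 ± 0.26 in footprints (adjusted p = 0.228). Of 10 genes of the NFE2L2 antioxidant pathway, 2 rose and 2 fell in input, and 3 rose and 2 fell in footprints. Over all tested genes 15.4% rose and 16.9% fell in input, and 23.8% rose and 25.6% fell in footprints. HMOX1, which degrades heme, rose by 1.16 ± 0.28 in input and 1.36 ± 0.21 in footprints, whereas the cystine carrier SLC7A11 changed by -2.72 ± 0.66 and -3.00 ± 0.65.

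Upstream of the proteasome, 1 of 9 genes for the unfoldase p97 and its cofactors fell in input and 4 in footprints, with FAF1 at -1.04 and -0.78. For this and the next lists, 16.9% of all tested genes fell and 15.4% rose in input. In footprints 25.6% fell and 23.8% rose. Of 5 shuttle receptors, 2 fell in input, and 3 fell and 1 rose in footprints. Among 6 genes for ubiquitin and its activating enzymes, 1 rose in input and 5 fell in footprints. RPS27A, which encodes ubiquitin fused to a ribosomal protein, was called lower in ribosome density, at -1.08 ± 0.20 (adjusted p = 0.00991). As another complex of several subunits, the CCT chaperonin had 7 of 8 subunits lower in both assays, with medians of -0.70 in input and -0.86 in footprints.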

How the data were processed

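Ribosome footprints and input RNA were sequenced by the authors from HCT116 cells treated with 100 nM trametinib or DMSO for 24 h. Per the methods of the study, adapters were removed, reads from rRNA and tRNA were discarded with Bowtie 1.2.2, and the remaining reads were mapped to the basic transcript set of Gencode. Reads were counted inside the annotated open reading frames of 1 gene symbol alone, so that reads shared between symbols are missing from the counts. The deposited table holds these raw counts and a normalized signal, the count divided by 1 size factor per library. Fold changes and adjusted p-values computed by the authors with DESeq2 1.46.0 are also in the table and were not used. Size factors recomputed as medians of ratios matched the deposited ones in 12 of 12 libraries. The number of unused columns with values of a library was 0.

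Raw counts were tested with edgeR 4.0.16 in R 4.3.3 (quasi-likelihood, robust, size factors over all 12 libraries). The filter asked for 10 or more counts in 3 or more of the 6 input libraries. Input and footprints were fitted separately, and ribosome density was the interaction of assay and treatment. SE is the log2 change divided by the square root of F, and nominal 95% intervals are 1.96 SE wide on each side. With 3 libraries per group these intervals are narrower than the test implies. PSMD3 in input has an interval of -0.66 to -0.01 beside an unadjusted p of 0.0617 in edgeR. DESeq2 1.42.0, limma 3.58.1 and other scalings, filters and sets of libraries were alternatives, and the scripts were tested on simulated data. Replicate numbers were checked as pairs over 7668 genes: deviations from the group mean of same-numbered DMSO and trametinib libraries correlated at 0.117, 0.133 and 0.294 in footprints and at 0.0690, 0.0502 and 0.340 in input. The main tests did not take the numbers as pairs in either assay. The model with a term for the replicate number was an alternative. Input and footprints of a dish share a lysate, a pairing that the main density test leaves out. Over the same genes, deviations of input and footprints with one number correlated at 0.816, 0.182 and 0.345 for solvent dishes. Under trametinib these correlations were 0.141, 0.0797 and -0.123. A block per dish was the alternative for density, and it called 0 members in either direction.

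Gene positions, reading frame lengths and shared windows came from Gencode v44 (GRCh38), whereas the authors used an earlier Gencode release of the same genome, and promoters came from RefSeq (GRCh38.p14), where 41 of 47 members matched. The members and gene lists were chosen with earlier results of these data known. Values per library are given for the 5 largest called changes in each direction and assay and for members fixed by role. The letters CCAAT, TTCNNNGAA and those of the ISRE were added after the values had been seen.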

Additional observations from a re-analysis of the deposited data

How the results depend on the processing

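With all libraries kept, 114 of 122 counts, medians, shares and CVs stayed within their limits, and 423 of 445 single-member results kept their direction and side of the threshold, with 21 calls lost and 1 reversal. Scaling by library totals gave 17 members lower in footprints with a median of -0.25, moved the median density change of members to 0.10, raised the genes called higher in density to 35 (7 in the main analysis) and turned PSMD4 in footprints to 0.029. DESeq2 gave 36 genes higher in density, a replicate block per dish gave 18, and leaving out both libraries of DMSO replicate 1, chosen after seeing the data, gave 14. With medians of 3 libraries the CV was 72.1% for the alpha ring in DMSO and 59.0% for the beta ring in trametinib. With the replicate number as a block, 21 members fell in input and 28 in footprints, where PSMA7 was lost and PSMA4, PSMD2 and PSMG4 were gained, and 0 were called in density. The block changed no other call of a member.

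Leaving out 1 library at a time gave 11 to 24 members lower in input (1239 to 1968 of all genes) and 17 to 38 in footprints (1999 to 3319). The medians ranged from -0.51 to -0.30 in input, from -0.54 to -0.38 in footprints and from -0.18 to 0.0051 in density. Genes called ranged from 1084 to 1748 higher in input and from 1 to 14 higher in density. The density range also covers the fit without both libraries of DMSO replicate 1, which gave 14. PSME4 in input ranged from -0.31 to 0.28 and reversed without DMSO replicate 2 (0.28) and without trametinib replicate 2 (0.017). PSMD4 in input ranged from -0.034 to 0.12 and reversed without DMSO replicate 3 (-0.0088) and without trametinib replicate 1 (-0.034). Fewer samples are in each of these fits, and the cause of the other shifts was not tested. Input depth, at most 2845568 reads, limits the density of weakly read members such as PSMG4 and PSMC3IP.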
